A study of Mus musculus with 20 samples.

Results

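The data described here compare PDGFRa-positive cells of mouse bone, group A, with double-negative cells, group DN, on 8 of the 20 expression arrays of a study of 5 sorted osteoblastic populations. Every array held RNA of cells from 8-week-old untreated male wild-type C57BL6 mice, released from bone with collagenase, sorted by FACS and not cultured. All 5 gates took cells without Lin and CD31 and with CD51, which is integrin alpha V. Group A also lacked Sca-1, carried PDGFRa and lacked PDGFRb. Group DN lacked Sca-1 and PDGFRa, and the sample titles write its PDGFRb sign as "PDGFR-+", from which the sign cannot be read. The same PDGFRa gate was also applied among cells with PDGFRb, giving group AB with both receptors and group B with PDGFRb alone. The last group, SL, was low in Sca-1 and lacked PDGFRa, with the same unclear PDGFRb sign. Each group had 4 arrays, named A1 to A4, DN1 to DN4 and so on. The labels do not say whether the 4 came from separate mice or from pools, so a p-value here weighs differences against the spread among arrays of a group, and that spread may be technical.

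PDGFRa and PDGFRb are receptor tyrosine kinases of mesenchymal cells that bind platelet-derived growth factors. In bone, both mark stromal and osteoprogenitor cells, and marrow stromal cells with many processes, called reticular cells, support blood stem cells through the chemokine CXCL12 and stem cell factor. Osteoblasts descend from such progenitors and lay down collagen that later mineralizes. Values are log2 of the normalized array intensity of 1 probe set per gene, so 1 unit is a doubling, and levels are compared within a gene and never between genes. A difference is A minus DN ± SE, and a gene was called at an adjusted p under 0.05 in limma fitted over all 20 arrays.

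Of 9129 genes tested, 320 were called in A against DN, which is 3.51%. Of these 262 were higher in A (2.87%) and 58 were lower (0.635%). The 4 A arrays lay wholly above or wholly below the 4 DN arrays for 773 genes (8.47%), 466 of them above (5.1%) and 307 below (3.36%), and 286 of the 320 called genes were among them. A difference of at least 2-fold was seen for 52 of the genes higher in A and for 2 of those lower in A. When any 1 of the 8 arrays was left out, 138 calls held in every fit, 128 higher and 10 lower. The median difference over all genes tested was 6e-04.

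The arrays of both groups were close to each other. Pearson's r over all genes was 0.959 to 0.981 within A, 0.955 to 0.97 within DN and 0.94 to 0.977 between them, and the median log2 of the arrays lay between 6.41 and 6.438. Markers of blood cells were measurable in both groups although Lin was gated out. The 15 measured neutrophil markers were all higher on average in A, none was called, and their mean log2 level was 9.09 to 9.99 on the A arrays and 8.47 to 9.70 on the DN arrays, highest on A4 and DN4. With that mean as a covariate 285 genes were called, 214 of them among the 320. The 6 monocyte and macrophage markers, none of them called, averaged 7.77 to 8.80 in A and 7.36 to 8.79 in DN. The 6 blood stem and progenitor markers averaged 7.71 to 8.03 in A and 7.09 to 7.58 in DN, without overlap, and none was called. The 21 tendon, periosteum and synovium markers averaged 9.52 to 9.73 in A and 9.21 to 9.41 in DN, also without overlap, and 2 of them were called, Angptl7 and Dpt. No endothelial marker of 5 was called, with means of 6.93 to 7.46 in A and 6.78 to 7.46 in DN. Fewer cells of a type and less RNA per cell cannot be told apart in such bulk samples. The part of these other cell types' transcripts in the results was not tested beyond the covariate.

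The transcripts of the gated proteins were measured first. Pdgfra had levels of 8.97, 8.95, 9.15 and 8.96 on the A arrays and 7.51, 7.75, 8.15 and 8.05 on the DN arrays. The groups did not overlap, and A was 2.21-fold higher (1.14 ± 0.16, adjusted p = 0.000317). Across all 5 groups the Pdgfra transcript did not follow the gate. It averaged 9.03 in B and 10.24 in SL, both gated without PDGFRa, and 9.72 in AB, against 9.01 in A. Pdgfrb, whose protein was gated out of A, had levels of 9.38, 9.14, 9.22 and 9.36 in A and 8.87, 8.84, 8.60 and 8.82 in DN. Its transcript was also higher in A, by 0.49 ± 0.12 (adjusted p = 0.0238), although this call was lost without A1, A4 and DN3, with adjusted p up to 0.0791. Itgav, which encodes CD51, averaged 9.95 ± 0.16 in A and 10.05 ± 0.18 in DN (SD, n = 4 each) and was not called (adjusted p = 0.718). Ly6a, the gene of Sca-1, Pecam1, that of CD31, and Ptprc, that of the leukocyte antigen CD45, were not called either, with differences of 0.19 ± 0.72, -0.08 ± 0.32 and 0.65 ± 0.56.

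The gene furthest above DN was Gpc3, a glypican, which is a heparan sulfate proteoglycan anchored to the cell surface. Its levels were 10.61, 9.99, 10.66 and 10.05 on the A arrays and 8.23, 7.59, 8.40 and 8.01 on the DN arrays, a gap of more than 1 unit between the lowest A and the highest DN array. A was 4.82-fold higher (2.27 ± 0.22, 95% interval 1.81 to 2.73, adjusted p = 7.9e-06). Its X-linked neighbour Gpc4, another glypican, had 9.29, 8.91, 9.11 and 9.11 in A and 8.62, 8.73, 8.49 and 8.72 in DN. That difference was smaller, 0.47 ± 0.09 (adjusted p = 0.00363), with the lowest A array just above the highest DN array. Of 22 measured glypicans, syndecans and enzymes that edit heparan sulfate, 5 were higher in A and 1 was lower, with a median of -0.09. The other members called higher were Sulf1, which removes sulfate groups from the chains, and the syndecans Sdc1 and Sdc2, with differences of 0.58 ± 0.15, 0.50 ± 0.11 and 0.36 ± 0.09. The call of Sulf1 was lost without A1, A2, A4, DN2, DN3 and DN4 (adjusted p up to 0.142), that of Sdc1 without A4 and DN2 (0.0765) and that of Sdc2 without A1, A2, A3, DN1, DN2, DN3 and DN4 (0.124). Hs3st3b1, a sulfotransferase of the same chains, was lower in A by -0.58 ± 0.14, a call lost without A2, A4, DN1 and DN3 (adjusted p up to 0.0832). The call of Gpc4 was lost with the 2 groups fitted alone.

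**Figure D1:**
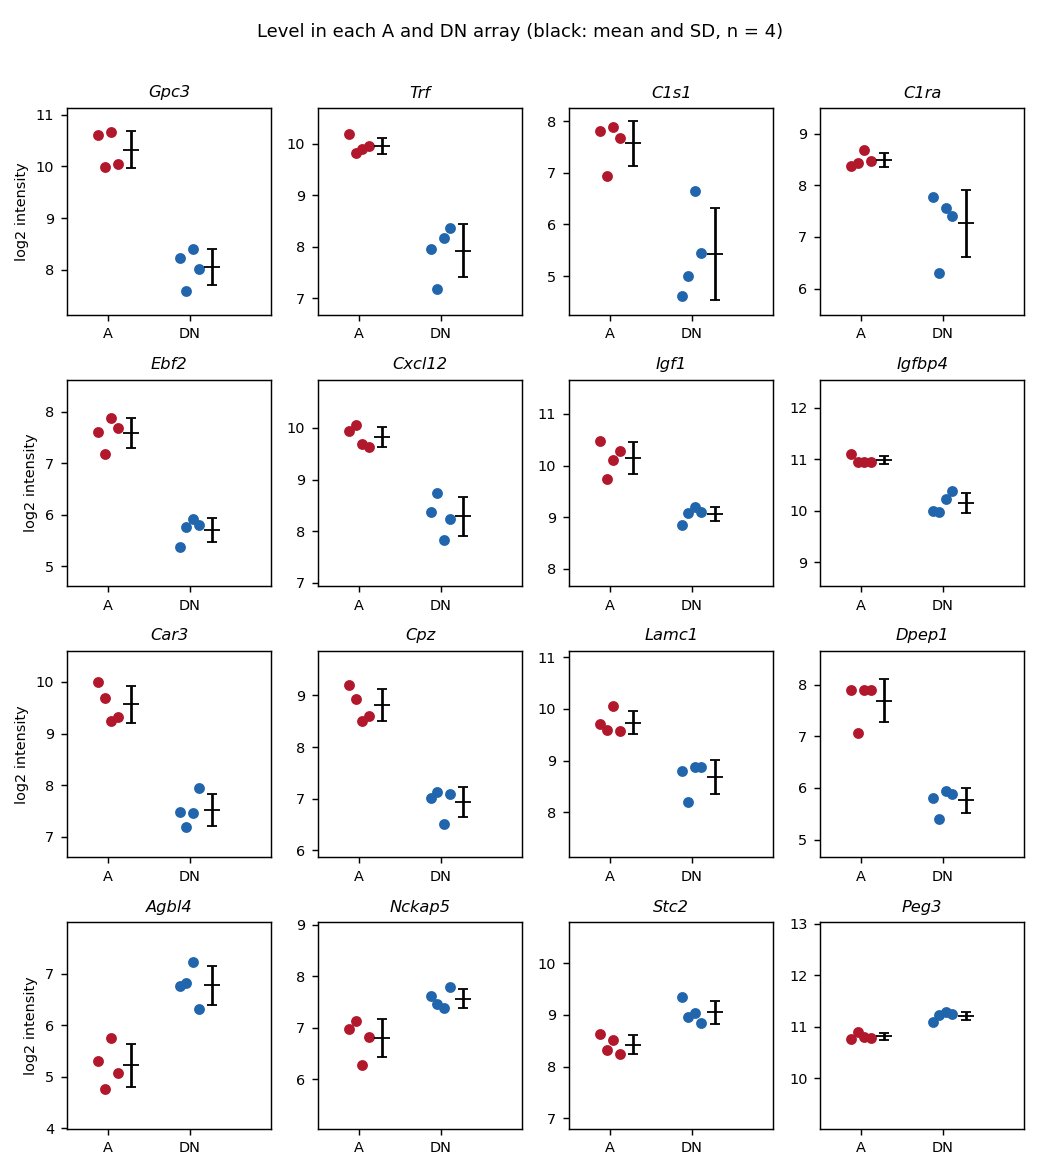
Log2 intensity of 16 genes on each of the 4 A arrays (left of each panel) and 4 DN arrays (right), with the mean and SD in black; every panel spans 4 log2 units. In each panel the A and DN arrays do not overlap, with 12 genes higher in A and Agbl4, Nckap5, Stc2 and Peg3 lower.

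Apod, a secreted lipocalin that carries small lipids, was the next largest rise. Its levels were 12.58, 12.41, 12.48 and 12.40 in A, close to each other, and 9.86, 9.41, 10.77 and 10.79 in DN, where DN1 and DN2 lay below DN3 and DN4. A was 4.79-fold higher (2.26 ± 0.22, adjusted p = 7.9e-06). Trf, which encodes the plasma iron carrier transferrin, had 10.18, 9.81, 9.89 and 9.95 in A and 7.95, 7.19, 8.18 and 8.37 in DN. The 4 A arrays all lay above the 4 DN arrays by more than 1 unit, and A was 4.09-fold higher (2.03 ± 0.19, adjusted p = 7.9e-06). Of 21 measured genes of iron uptake, storage and export, 4 were higher in A and 1 was lower, with a median of 0.06. Ceruloplasmin, Cp, a copper enzyme that oxidizes iron for loading onto transferrin, averaged 10.62 ± 0.14 in A and 9.93 ± 0.06 in DN (SD, n = 4 each, adjusted p = 0.000963). Steap3, a reductase that frees iron from transferrin inside endosomes, averaged 9.79 ± 0.11 and 8.97 ± 0.42 in the same order (adjusted p = 0.00549). Scara5, a scavenger receptor that takes up ferritin, had 8.79, 8.83, 8.87 and 8.71 in A and 5.90, 6.16, 7.67 and 7.58 in DN. DN1 and DN2 were the lowest arrays, and the call (1.97 ± 0.52, adjusted p = 0.0394) was lost without any 1 of A1, A2, A3, A4, DN1 and DN2, with adjusted p up to 0.123. The member lower in A was Steap1, a related membrane protein, at -0.58 ± 0.13, lost without A3, DN1 and DN4 (adjusted p up to 0.0655). That of Steap3 was lost with the 2 groups fitted alone.

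Several complement genes were higher in A. In the classical pathway the protease C1r activates the protease C1s, which cleaves C4 and C2, and this leads to activation of C3. Of 20 measured components and regulators 7 were higher in A and none was lower, with 17 of 20 differences above 0 and a median of 0.48. C1s1, a mouse gene of the C1s protease, had 7.81, 6.93, 7.88 and 7.68 in A and 4.62, 5.00, 6.66 and 5.44 in DN. A2 was the lowest A array and DN3 the highest DN array, and they did not overlap (2.15 ± 0.30, 4.43-fold, adjusted p = 0.000294). C1ra, a gene of the partner protease C1r, had 8.38, 8.44, 8.68 and 8.47 in A and 7.78, 6.31, 7.56 and 7.40 in DN, with DN2 more than 1 unit below the other DN arrays. Its difference was 1.23 ± 0.22, or 2.35-fold (adjusted p = 0.00277). Both proteases are held in check by the C1 inhibitor, Serping1, which had 10.91, 10.56, 10.90 and 10.88 in A and 9.55, 9.35, 9.92 and 9.61 in DN (1.21 ± 0.12, adjusted p = 1.13e-05). So both the proteases and their inhibitor were more abundant as transcripts in A.

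C1ra and C1s1 are neighbours on chromosome 6 that are read from opposite strands. In all, 4528 pairs of measured genes were next to each other in the RefSeq order of protein-coding genes. In 9 pairs both genes were called, and in all 9 the direction was the same. With 3.51% of all genes called, and 262 of the 320 calls higher in A, some such pairs and a shared direction are found among any calls. Whether 9 exceeds that number was not tested. Besides C1ra with C1s1 and Gpc4 with Gpc3, the pairs included Psmb8 with Tap2 and the imprinted Zim1 with Peg3. The promoters of the first 4 are shown because they differ in base composition between the pairs. The 250 bases before each gene's start, from RefSeq on the GRCm38.p6 build, are printed 5′ to 3′ in the direction of the gene, with any GC box (GGGCGG or its reverse complement) in capitals. C1ra lies on the plus strand (chr6:124512371-124512620), and the other three on the minus strand (C1s1 at chr6:124542360-124542609, Gpc3 at chrX:52613975-52614224, Gpc4 at chrX:52164924-52165173).
C1ra: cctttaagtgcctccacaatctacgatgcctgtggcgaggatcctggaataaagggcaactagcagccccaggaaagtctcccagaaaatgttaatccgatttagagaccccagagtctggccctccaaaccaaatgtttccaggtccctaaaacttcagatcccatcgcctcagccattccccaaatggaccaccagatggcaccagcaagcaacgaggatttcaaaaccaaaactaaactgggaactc
C1s1: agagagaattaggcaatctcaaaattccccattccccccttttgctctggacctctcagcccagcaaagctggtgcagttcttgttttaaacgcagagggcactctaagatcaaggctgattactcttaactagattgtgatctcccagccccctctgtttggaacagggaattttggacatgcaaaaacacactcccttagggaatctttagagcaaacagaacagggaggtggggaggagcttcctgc
Gpc3: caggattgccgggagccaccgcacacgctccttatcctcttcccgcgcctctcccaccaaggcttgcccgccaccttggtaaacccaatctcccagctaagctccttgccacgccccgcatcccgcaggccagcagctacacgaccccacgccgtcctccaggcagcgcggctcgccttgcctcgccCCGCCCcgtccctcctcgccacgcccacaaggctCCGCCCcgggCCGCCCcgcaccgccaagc
Gpc4: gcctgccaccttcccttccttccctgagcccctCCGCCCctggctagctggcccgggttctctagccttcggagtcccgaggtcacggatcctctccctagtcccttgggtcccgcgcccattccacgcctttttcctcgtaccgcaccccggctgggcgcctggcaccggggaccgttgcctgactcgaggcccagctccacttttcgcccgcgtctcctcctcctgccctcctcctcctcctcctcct
The protease promoters held no GC box, with a GC content of 49.6% for C1ra and 48% for C1s1. The glypican promoters held 3 boxes at 71.6% GC for Gpc3 and 1 box at 68.4% GC for Gpc4. In windows from 250 bases before to 50 after the start, a GC box on either strand was present in 59.9% of the 177 promoters found for genes higher in A, in 57.4% of 47 for genes lower in A and in 67.3% of 7067 for all genes tested. EBF proteins can bind the palindrome TCCC, any 2 bases, GGGA. It was present in 4 of the 177 promoters of genes higher in A (2.26%) and 1 of 47 of genes lower in A (2.13%). Of all tested, 0.92% held it. These matches describe letters in a window and are not measured binding sites.

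A regulator further down the cascade was also higher in A. Vtn, vitronectin, which binds the terminal complex and integrins, had 6.52, 6.15, 6.95 and 6.55 in A and 5.41, 5.49, 5.14 and 5.52 in DN (1.15 ± 0.24, adjusted p = 0.00805). The members C1qtnf2 and C1qtnf7 share only the C1q-like domain and are secreted proteins of the adiponectin family. C1qtnf2 differed by 0.76 ± 0.13 (adjusted p = 0.00205), and C1qtnf7 by 1.16 ± 0.25 (adjusted p = 0.013), a call lost without A3 and A4 (up to 0.0549). The components cleaved further along the pathway were not called: C3 differed by 0.72 ± 0.35 (adjusted p = 0.332), C4b by 0.38 ± 0.34 (0.635) and C2 by 0.30 ± 0.19 (0.472). C6, a part of the membrane attack complex, differed by -0.24 ± 0.24 (0.681).

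Insulin-like growth factor genes gave 5 higher and 1 lower of 17 measured, with a median of 0.02. Igf1, the growth factor itself, had 10.47, 9.74, 10.12 and 10.28 in A and 8.86, 9.09, 9.19 and 9.10 in DN, without overlap (1.09 ± 0.14, 2.13-fold, adjusted p = 9.69e-05). Its binding protein Igfbp4 had 11.10, 10.95, 10.94 and 10.94 in A and 9.99, 9.98, 10.23 and 10.38 in DN (0.84 ± 0.09, adjusted p = 2.88e-05). Igfbp5, another binding protein, had 11.54, 11.57, 11.80 and 11.84 in A and 10.66, 10.86, 11.14 and 11.20 in DN (0.72 ± 0.11, adjusted p = 0.000565). The 3 genes were thus higher on every A array than on any DN array. Igfbp6 and Igfbp3 were higher by 0.87 ± 0.19 and 0.67 ± 0.15, calls lost without A4 and without A1, A4 and DN1, with adjusted p up to 0.0593 and 0.0588. Stc2, stanniocalcin 2, which blocks the protease PAPP-A that releases IGF from IGFBP4, ran the other way. It had 8.63, 8.31, 8.52 and 8.24 in A and 9.35, 8.95, 9.04 and 8.85 in DN, lower in A on every array (-0.62 ± 0.12, adjusted p = 0.0047). Pappa, the gene of that protease, was not called (-0.08 ± 0.21, adjusted p = 0.903).

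Genes that mark reticular cells of the marrow stroma had the largest share of members higher in A among the lists plotted. Of 29 measured, 13 were higher in A and none was lower, 25 of 29 differences were above 0, and the median was 0.45. Over all lists, 121 of 1050 measured members were higher in A and 12 were lower. The lists were chosen with earlier results of these data known. Trf, Serping1, Igfbp4 and Igfbp5 are called members of this list and are also counted on the iron, complement or insulin-like growth factor lists. Cxcl12, the chemokine that holds blood stem cells and B cell progenitors in the niche, had 9.94, 10.05, 9.69 and 9.63 in A and 8.36, 8.74, 7.82 and 8.24 in DN (1.54 ± 0.19, 2.9-fold, adjusted p = 7.88e-05). Kitl, which encodes stem cell factor, had 6.31, 6.43, 6.33 and 6.25 in A and 5.78, 5.73, 5.38 and 5.37 in DN (0.77 ± 0.16, adjusted p = 0.0105). Both were higher on each A array than on any DN array. Adipoq, the gene of the hormone adiponectin, which marrow stromal cells also express, had 5.94, 6.24, 5.24 and 6.0 in A and 4.54, 4.50, 4.30 and 4.30 in DN, and DN was near the low end of the arrays' scale (1.45 ± 0.29, adjusted p = 0.00805). Ebf2, a transcription factor of stromal and brown fat precursors, had 7.60, 7.17, 7.87 and 7.69 in A and 5.37, 5.75, 5.91 and 5.80 in DN, more than 1 unit apart (1.87 ± 0.21, 3.67-fold, adjusted p = 2.92e-05). Ebf3, a related factor of the niche cells, was at 6.88 ± 0.13 in A and 6.79 ± 0.17 in DN (SD, n = 4 each) and was not called (adjusted p = 0.868). Lpl, the lipase that releases fatty acids from lipoproteins, had 9.71, 9.17, 9.17 and 9.12 in A and 8.38, 7.79, 8.59 and 8.35 in DN (1.01 ± 0.17, adjusted p = 0.0017). Gas6, a ligand of TAM receptors, was higher by 0.83 ± 0.12 (adjusted p = 0.00047). Lepr, the leptin receptor, a standard marker of these cells, was higher by 1.28 ± 0.32 (adjusted p = 0.0313), a call lost without A1, A3, A4, DN1 and DN2 (up to 0.114). Vcam1, an adhesion receptor, was higher by 0.93 ± 0.25 with overlapping groups, and its call was lost without A1, A2, A4, DN1, DN2 and DN3 (adjusted p up to 0.171). The calls of Kitl and Adipoq were lost under quantile normalization, and that of Adipoq also without every replicate 4.

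**Figure D2:**
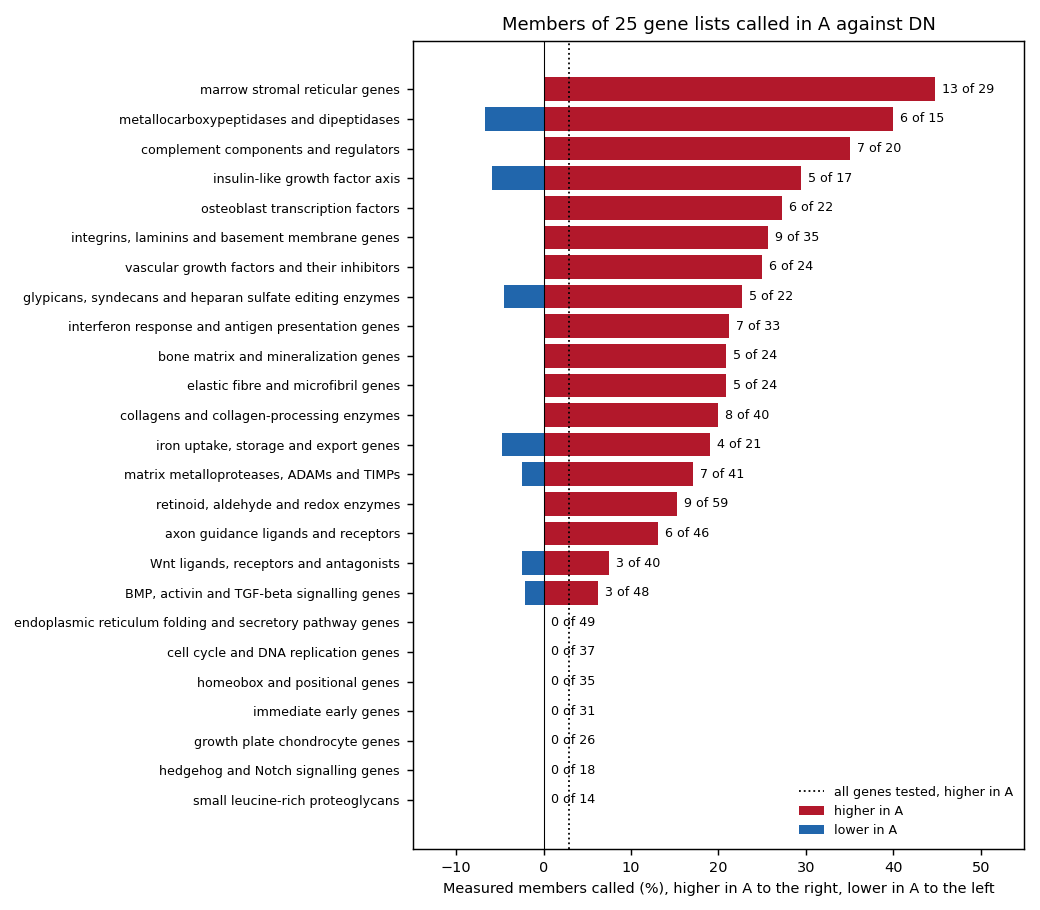
Percent of the measured members of 25 gene lists called in A against DN, higher in A to the right in red and lower in A to the left in blue, with the number higher of the number measured beside each bar and the share of all genes tested that were higher in A as a dotted line. Marrow stromal reticular genes lead with 13 of 29, and 7 lists have no called member.

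Of 22 measured osteoblast transcription factors 6 were higher in A and none was lower, with a median of 0.07. Dlx3, a homeobox factor of bone and skin, had 6.79, 6.75, 6.93 and 6.69 in A and 6.11, 6.36, 6.34 and 6.21 in DN (0.54 ± 0.11, adjusted p = 0.00801). Prrx1, a homeobox factor of limb mesenchyme and skeletal progenitors, had 9.94, 9.82, 10.14 and 9.99 in A and 9.47, 9.44, 9.74 and 9.47 in DN (0.44 ± 0.09, adjusted p = 0.00805). For both genes the 4 A arrays lay above the 4 DN arrays. The master regulators of the lineage were not among the calls. Runx2 averaged 10.41 ± 0.24 in A and 10.40 ± 0.24 in DN (SD, n = 4 each), with an interval of the difference of -0.34 to 0.37. Sp7, or osterix, averaged 8.41 ± 0.41 in A and 8.50 ± 0.25 in DN (SD, n = 4 each), with an interval of -0.55 to 0.37. The call of Dlx3 was lost under quantile normalization, and that of Prrx1 with the 2 groups fitted alone and without every replicate 4.

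Among 24 measured bone matrix and mineralization genes 5 were higher in A and none was lower, with a median of 0.11. Car3, carbonic anhydrase 3, found in muscle, fat and osteocytes, had 10.01, 9.69, 9.25 and 9.31 in A and 7.48, 7.19, 7.47 and 7.94 in DN (2.05 ± 0.20, 4.13-fold, adjusted p = 8.73e-06). It is also on the list of skeletal muscle markers, where it was the only called gene of 4 measured. Cpz, a carboxypeptidase with a domain like that of Wnt receptors, had 9.21, 8.92, 8.51 and 8.61 in A and 7.01, 7.13, 6.51 and 7.10 in DN (1.87 ± 0.21, 3.67-fold, adjusted p = 2.74e-05). Both genes were more than 1 unit apart between the lowest A and the highest DN array. Slc36a2, an amino acid transporter, had 9.31, 8.80, 8.66 and 8.37 in A and 7.77, 7.74, 7.70 and 7.38 in DN (1.14 ± 0.20, adjusted p = 0.00253). Ifitm5, an osteoblast membrane protein that takes part in mineralization, had 7.71, 7.81, 7.43 and 7.38 in A and 6.48, 6.97, 6.27 and 6.62 in DN (1.00 ± 0.18, adjusted p = 0.00302). Dmp1, an acidic phosphoprotein of osteocytes, was higher by 1.00 ± 0.24, a call lost without A1, A2, A3, DN2 and DN4 (adjusted p up to 0.0795). Ibsp, bone sialoprotein, averaged 12.51 ± 0.11 in A and 12.43 ± 0.16 in DN, and Alpl, the alkaline phosphatase that releases phosphate for mineral, 11.82 ± 0.10 and 11.97 ± 0.26 in the same order (SD, n = 4 each). Neither was called, and the intervals of their differences were -0.12 to 0.29 and -0.45 to 0.16.

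None of 26 measured growth plate chondrocyte genes was called, and 2 of 26 differences were above 0, with a median of -0.17. Col2a1, the main cartilage collagen, averaged 13.35 ± 0.22 in A and 13.35 ± 0.24 in DN (SD, n = 4 each). Acan, aggrecan, differed by -0.13 ± 0.10 (adjusted p = 0.599). Ihh, the hedgehog ligand of prehypertrophic chondrocytes, had 8.52, 8.36, 7.48 and 7.24 in A and 9.50, 9.03, 8.38 and 7.99 in DN. The groups overlapped for Ihh, and its difference of -0.82 ± 0.31 was not called (adjusted p = 0.176). No member was called either among 14 small leucine-rich proteoglycans, 18 hedgehog and Notch genes, 35 homeobox and positional genes, 31 immediate early genes, 49 secretory pathway genes, 37 cell cycle genes or 21 genes of glycolysis. With 3.51% of all genes called, lists of these sizes would hold few calls at that share, so a count of 0 is close to it.

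Genes on the list of metallocarboxypeptidases and dipeptidases made up 4 of the 25 largest rises that held without any 1 array. The list also holds other membrane peptidases such as Enpep and Mme. Of its 15 measured genes 6 were higher in A and 1 was lower, with a median of 0.24. Dpep1, a membrane dipeptidase, had 7.90, 7.07, 7.89 and 7.89 in A and 5.80, 5.41, 5.95 and 5.88 in DN (1.93 ± 0.28, 3.81-fold, adjusted p = 0.00047). A2 stood below the other 3 A arrays and still above every DN array. Enpep, the aminopeptidase that cuts angiotensin II, had 6.77, 6.17, 6.10 and 6.32 in A and 4.54, 4.72, 5.76 and 5.69 in DN (1.16 ± 0.24, adjusted p = 0.00892). Mme, neprilysin or CD10, an endopeptidase of stromal cell surfaces, had 7.92, 7.46, 7.51 and 7.92 in A and 6.34, 7.04, 6.70 and 6.56 in DN (1.04 ± 0.18, adjusted p = 0.00191). Cpxm1, a secreted protein of the carboxypeptidase family, had 8.81, 8.03, 8.29 and 8.30 in A and 7.44, 6.88, 7.46 and 6.84 in DN (1.20 ± 0.21, adjusted p = 0.00188). For all 3 the arrays of the groups did not overlap. Its relative Cpxm2 was higher by 0.42 ± 0.10, a call lost without A1, A4, DN1 and DN3 (adjusted p up to 0.0716). The gene lower in A was Agbl4, a cytosolic carboxypeptidase that removes glutamates from tubulin. The call of Enpep was lost with the 2 groups fitted alone.

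Basement membrane and interstitial matrix genes were higher in A in several families. Of 35 measured integrins, laminins and basement membrane genes 9 were higher in A and none was lower, with a median of 0.27. Lama2, Lamb1 and Lamc1 encode the alpha, beta and gamma chains of laminin 211, the laminin around muscle and nerve. Lama2 had 10.13, 9.84, 9.84 and 9.85 in A and 8.81, 8.70, 9.14 and 9.02 in DN (1.00 ± 0.13, adjusted p = 0.000145). Lamb1 had 8.46, 7.97, 8.51 and 8.36 in A and 7.19, 6.79, 7.61 and 7.38 in DN (1.08 ± 0.16, adjusted p = 0.000413). Lamc1 had 9.71, 9.59, 10.05 and 9.57 in A and 8.79, 8.20, 8.87 and 8.88 in DN (1.04 ± 0.15, adjusted p = 0.00031). The 3 chains were each close to 2-fold higher, on every A array above every DN array. Nid1, nidogen, which links laminin to type IV collagen, had 10.72, 10.61, 10.86 and 10.69 in A and 9.82, 10.13, 10.22 and 9.83 in DN (0.72 ± 0.11, adjusted p = 0.000579). Smoc2, a calcium-binding matricellular protein, was higher by 0.77 ± 0.12 (adjusted p = 0.000534).

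Of 40 measured collagens and collagen-processing enzymes 8 were higher and none was lower (median 0.15), and of 24 elastic fibre and microfibril genes 5 were higher and none was lower (median 0.39). Adamts2, the protease that removes the amino-terminal propeptide of fibrillar procollagens, had 9.99, 9.81, 9.59 and 9.66 in A and 8.93, 8.88, 8.71 and 8.89 in DN (0.91 ± 0.10, adjusted p = 1.82e-05). Col5a3, a minor chain of type V collagen, had 9.55, 9.21, 9.68 and 9.40 in A and 8.54, 8.09, 8.73 and 8.75 in DN (0.93 ± 0.12, adjusted p = 0.000162). Both were without overlap. Col4a1, of the basement membrane network, was higher by 0.47 ± 0.10 (adjusted p = 0.0125). Fbn2, a fibrillin, had 7.16, 7.55, 7.23 and 7.38 in A and 6.69, 6.41, 6.24 and 6.12 in DN (0.97 ± 0.17, adjusted p = 0.00221). Ltbp4, which tethers latent TGF-beta to microfibrils, and Mfap4, a microfibril protein, were higher by 0.90 ± 0.17 and 0.68 ± 0.14 (adjusted p = 0.00497 and 0.00819), and for Mfap4 the groups overlapped. With the 2 groups fitted alone the calls of Col4a1 and Mfap4 were lost, and that of Mfap4 also without every replicate 4.

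Of 41 measured matrix metalloproteases, ADAMs and TIMPs, 7 were higher and 1 was lower, with a median of 0.30. Adam19 had 7.58, 7.42, 7.36 and 7.69 in A and 6.60, 6.83, 6.97 and 6.88 in DN (0.69 ± 0.11, adjusted p = 0.00075). Mmp11, a stromal metalloprotease, had 7.42, 6.93, 7.12 and 7.56 in A and 6.81, 6.29, 6.43 and 6.24 in DN (0.81 ± 0.17, adjusted p = 0.00903). Both were without overlap. Ctsk, cathepsin K, the collagenase of osteoclasts that fibroblasts also express, was higher by 0.44 ± 0.09 (adjusted p = 0.00879). It was the only called gene of 5 measured osteoclast markers, whose mean level was 8.64 to 9.12 on the A arrays and 8.45 to 8.68 on the DN arrays. Whether osteoclast RNA had a part in the Ctsk difference was not tested. The call of Ctsk was lost with the 2 groups fitted alone and that of Mmp11 without every replicate 4.

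Guidance and growth factor genes were also among the calls. Of 46 measured axon guidance genes 6 were higher and none was lower (median 0.17), and of 24 vascular growth factors and inhibitors 6 were higher and none was lower (median 0.30). Angptl7, an angiopoietin-like secreted protein, had 9.11, 8.43, 9.43 and 8.77 in A and 7.43, 7.44, 7.74 and 7.08 in DN (1.51 ± 0.22, 2.85-fold, adjusted p = 0.000361). Slit2, a repulsive ligand of Robo receptors, had 9.23, 9.17, 8.76 and 8.80 in A and 7.52, 8.51, 8.33 and 7.97 in DN (0.91 ± 0.19, adjusted p = 0.00898). Nrp2, a co-receptor for semaphorins and VEGF, was higher by 0.83 ± 0.17 (adjusted p = 0.00915). Gfra2, the receptor of neurturin, was higher by 0.78 ± 0.14 (0.00221). Serpinf1, the anti-angiogenic serpin PEDF, had 12.03, 11.90, 11.93 and 11.90 in A and 11.26, 11.31, 11.21 and 11.22 in DN, the tightest of these spreads (0.69 ± 0.08, adjusted p = 4.38e-05). Of 18 FGF genes 2 were higher, among them Spry1, a feedback inhibitor of receptor tyrosine kinases (0.81 ± 0.13, adjusted p = 0.000759). Of 40 Wnt genes 3 were higher and 1 was lower. Dkk3 was higher by 0.69 ± 0.14 (adjusted p = 0.00819), and the ligand Wnt11 lower by -0.67 ± 0.17, a call lost without A1, A2, A3, DN1 and DN3 (up to 0.115). BMP, activin and TGF-beta genes gave 3 higher and 1 lower of 48, with a median of 0.01. The calls of Slit2 and Dkk3 were lost with the 2 groups fitted alone.

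Of 59 measured retinoid, aldehyde and redox enzymes 9 were higher in A and none was lower, with a median of 0.18. Aldh1a1, which makes retinoic acid, had 7.79, 7.64, 7.32 and 7.79 in A and 5.89, 5.78, 6.60 and 6.74 in DN (1.38 ± 0.25, 2.61-fold, adjusted p = 0.00341). Cyp1b1, a cytochrome that oxidizes steroids and retinoids, had 7.0, 6.52, 6.81 and 6.55 in A and 5.70, 5.14, 5.37 and 5.67 in DN (1.25 ± 0.19, 2.38-fold, adjusted p = 0.000565). Neither overlapped between groups. Fmo1, a flavin monooxygenase, was higher by 0.88 ± 0.15 (adjusted p = 0.00131). The glutathione transferases Gstt1 and Gstm1 were higher by 0.82 ± 0.17 and 0.70 ± 0.14 (adjusted p = 0.00717 and 0.00805). Gstm1 belongs to a family of close copies that probe sets may not tell apart. The call of Gstm1 was lost with the 2 groups fitted alone and that of Gstt1 without every replicate 4.

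Interferon response and antigen presentation genes gave 7 higher and none lower of 33, with 28 of 33 differences above 0 and a median of 0.38. Igtp, an interferon-induced GTPase, had 7.35, 6.99, 7.43 and 7.64 in A and 6.19, 6.38, 6.75 and 6.89 in DN (0.80 ± 0.16, adjusted p = 0.00811). Ifitm3, a membrane protein that restricts virus entry, had 11.04, 10.78, 10.62 and 10.88 in A and 10.05, 9.75, 9.91 and 10.58 in DN (0.76 ± 0.14, adjusted p = 0.00361). H2-K1, a class I major histocompatibility gene, had 10.29, 10.23, 10.31 and 10.44 in A and 9.82, 9.41, 9.73 and 9.52 in DN (0.70 ± 0.10, adjusted p = 0.000529), and other class I genes share sequence with it. The groups did not overlap for these genes. Bst2, or tetherin, was higher by 0.54 ± 0.14, a call lost without A1, A3, A4, DN1, DN2, DN3 and DN4 (adjusted p up to 0.124). Blood cells express these genes as well, and the neutrophil marker means of 9.57, 9.70, 9.09 and 9.99 on the A arrays overlapped those of 9.02, 8.47, 8.65 and 9.70 on the DN arrays. Their part in these differences was not tested. The calls of Igtp and Ifitm3 were lost with the 2 groups fitted alone.

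The promoters of 3 of these genes are shown because each holds the letters that interferon-activated factors can bind, 2 copies of GAAA with any 2 bases between them, on either strand, in capitals with 10 bases on each side of the first match. The windows, from RefSeq on GRCm38.p6, are chr11:58199512-58199541 for Igtp on the plus strand, chr7:141010723-141010752 for Ifitm3 on the minus strand and chr8:71537583-71537612 for Bst2 on the minus strand, printed 5′ to 3′ in the direction of the gene.
Igtp: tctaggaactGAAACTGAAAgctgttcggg
Ifitm3: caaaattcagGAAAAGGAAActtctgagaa
Bst2: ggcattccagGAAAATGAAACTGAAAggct
The first base of the match lay 34 bases before the start of Igtp, 2 after that of Ifitm3 and 130 before that of Bst2, where 2 matches overlap. The element was in 9 of 177 promoters of genes higher in A (5.08%), in 0 of 47 of genes lower in A and in 2.63% of 7067 promoters of the genes tested. The other genes higher in A with a match included Clec2d, Gstt1 and Vtn.

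Other leading rises belonged to no single theme. Shisa3, an adaptor that holds Wnt and FGF receptors back in the endoplasmic reticulum, had 6.54, 6.05, 6.82 and 6.67 in A and 4.45, 4.79, 4.95 and 5.04 in DN (1.72 ± 0.29, 3.29-fold, adjusted p = 0.0019). Tenm2, a teneurin adhesion protein, had 7.51, 6.87, 7.83 and 7.10 in A and 5.88, 5.52, 5.84 and 5.54 in DN (1.63 ± 0.19, 3.1-fold, adjusted p = 3.53e-05). Rasgrp2, an exchange factor for the small GTPase Rap, had 6.70, 6.40, 6.97 and 6.78 in A and 4.90, 5.11, 5.42 and 5.83 in DN (1.39 ± 0.16, 2.63-fold, adjusted p = 3.53e-05). All were without overlap. Cd1d1, which presents lipids to natural killer T cells, had 7.47, 7.16, 7.17 and 6.78 in A and 6.05, 5.32, 6.17 and 5.93 in DN (1.28 ± 0.23, adjusted p = 0.00294). Clec2d, a ligand of a natural killer cell receptor, was higher by 1.26 ± 0.20 (adjusted p = 0.000988). Thy1, or CD90, a surface glycoprotein of mesenchymal progenitors and fibroblasts, had 7.71, 6.97, 7.55 and 7.58 in A and 6.12, 6.46, 5.93 and 6.51 in DN (1.20 ± 0.16, adjusted p = 0.000223). Ackr4, a receptor that scavenges chemokines, had 9.70, 9.42, 9.18 and 9.02 in A and 8.19, 8.46, 8.28 and 7.78 in DN (1.15 ± 0.18, adjusted p = 0.000759). Zeb2, a zinc finger repressor of epithelial genes, was the one called higher among 54 Sox, forkhead, Kruppel-like and other stromal factors (1.06 ± 0.14, adjusted p = 0.000187).

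Several of these genes also mark Sca-1-positive fibroblasts. Of 25 measured fibroblast markers 7 were higher in A and none was lower, 22 of 25 differences were above 0, and the median was 0.63. Their mean level was 8.50, 8.12, 8.38 and 8.50 on the A arrays and 7.41, 7.26, 7.75 and 7.90 on the DN arrays, without overlap. The called members included Dpep1, Scara5 and Dpt, dermatopontin, which had 10.44, 10.25, 10.38 and 10.58 in A and 9.05, 8.95, 9.49 and 10.05 in DN (1.03 ± 0.20, adjusted p = 0.00674). The transcript of Sca-1 itself, Ly6a, had 8.03, 7.25, 7.45 and 8.15 in A and 7.27, 7.03, 7.55 and 8.28 in DN, and the groups overlapped. Among 11 Schwann cell markers none was called and 1 was above 0, and among 14 pericyte and smooth muscle markers Vtn alone was called. The part of fibroblast RNA in the differences was not tested.

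Fewer genes were lower in A, and 10 of the 58 calls held in every fit without 1 array. Agbl4 was the largest fall that held in every fit, with 5.31, 4.76, 5.75 and 5.08 in A and 6.75, 6.82, 7.23 and 6.31 in DN (-1.55 ± 0.28, fold 0.341, adjusted p = 0.00331). Every DN array lay above every A array. Nckap5, a gene of little known function, had 6.98, 7.13, 6.29 and 6.82 in A and 7.62, 7.47, 7.38 and 7.80 in DN (-0.76 ± 0.17, adjusted p = 0.0125). Inadl, a scaffold protein of tight junctions also called Patj, had 6.40, 6.67, 6.18 and 6.39 in A and 7.11, 7.04, 7.02 and 7.32 in DN (-0.71 ± 0.15, adjusted p = 0.0103). Cldn12, a claudin, had 8.14, 8.09, 7.92 and 7.98 in A and 8.68, 8.65, 8.97 and 8.51 in DN (-0.67 ± 0.13, adjusted p = 0.0047). Both encode parts of cell junctions, and both were lower on every A array than on any DN array. Urb1, needed for assembly of the large ribosomal subunit, was lower by -0.61 ± 0.12 (adjusted p = 0.00542). L3mbtl2, a chromatin protein of a Polycomb complex, was lower by -0.47 ± 0.10 (0.0108), and Drp2, a relative of dystrophin, by -0.54 ± 0.12 (0.0125). Fam131a was lower by -0.57 ± 0.12 (0.0106), and with Stc2 and Peg3 these are all 10 that held. Those of Nckap5, Fam131a and L3mbtl2 were lost with the 2 groups fitted alone and without every replicate 4, that of Drp2 with the 2 groups fitted alone and that of Urb1 with the mean of a gene's probe sets.

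Peg3, a zinc finger protein expressed from the paternal allele, had 10.77, 10.90, 10.80 and 10.78 in A and 11.10, 11.22, 11.28 and 11.25 in DN. The 2 sets of arrays did not overlap, and the difference was small, -0.40 ± 0.09 (adjusted p = 0.0141). Its imprinted neighbour Zim1 on chromosome 7, expressed from the maternal allele, had 9.10, 9.95, 9.50 and 9.32 in A and 10.04, 10.97, 9.98 and 10.21 in DN. Its difference was -0.83 ± 0.21 (adjusted p = 0.0346), a call lost without A1, A3, A4, DN2 and DN4 (up to 0.12). These were the 2 called of 16 measured imprinted growth-network genes, none of which was higher in A, with a median of -0.13. The call of Peg3 was lost with the 2 groups fitted alone and without every replicate 4.

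The same receptor gate among PDGFRb-positive cells, AB against B, uses other arrays throughout, although both pairs share 1 fit. It gave 138 calls (1.51%), 101 higher in AB (1.11%) and 37 lower (0.405%), and 74 of them held in every fit without 1 AB or B array. Same-numbered AB and B arrays had correlated deviations, although no label states a pairing. With the replicate number as a block 319 were called, 160 higher and 159 lower, so the larger number of higher calls was not seen with the block. Of the 262 genes higher in A than in DN, 193 had a positive AB minus B, as had 4692 of all 9129 genes tested, and 31 were called there in the same direction. Their median difference was 0.70 in A minus DN and 0.15 in AB minus B. Of the 58 genes lower in A, 37 had a negative AB minus B, as had 4435 of all genes tested, and 2 were called, Syt8 and Ddah1. In all, 33 genes were called in both contrasts in the same direction (58 with the block), 18 of these held in every fit without 1 array of the pair, and 2, Mustn1 and Col22a1, were called in opposite directions (28 with the block). Both the AB and the B gate took cells without Sca-1, yet its transcript Ly6a was uneven among their arrays. It ran from 7.10 to 10.05 in AB and from 7.01 to 10.90 in B, with 10.18 on B3, against a mean of 10.51 in SL. The part of this spread in AB against B was not tested.

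Ddah1, which breaks down an inhibitor of nitric oxide synthesis, differed by -0.34 ± 0.09 in A minus DN and -0.48 ± 0.09 in AB minus B. Syt8, a synaptotagmin, differed by -0.64 ± 0.16 and -0.72 ± 0.16. Their calls in A against DN were lost without A1, A3, A4, DN1, DN2 and DN3 for Ddah1 and A1, A2, A4, DN1, DN2 and DN3 for Syt8, with adjusted p up to 0.114 and 0.106, and that of Syt8 in AB against B without AB1, AB2 and B3 (up to 0.115). The genes furthest up in both contrasts included Gpc3, with 1.18 ± 0.22 in AB minus B (adjusted p = 0.0058), and Trf, with 1.22 ± 0.19 (0.00163). Shisa3 had 2.28 ± 0.29 (0.000142), larger in value than its A minus DN, and Tenm2 1.40 ± 0.19 (0.000208). Cxcl12 reached 12.58, 12.73, 12.52 and 12.33 on the AB arrays and 11.24, 11.33, 11.64 and 11.36 on the B arrays, above every A array, and differed by 1.15 ± 0.19 (adjusted p = 0.00211). Adipoq had 10.51, 10.99, 10.24 and 9.99 in AB and 7.26, 7.73, 8.63 and 8.11 in B (2.50 ± 0.29, adjusted p = 4.95e-05). Lepr had 1.92 ± 0.32 in AB minus B (0.00233), and Kitl 1.5 ± 0.16 (2e-05). Dpep1 had 1.59 ± 0.28 (0.0042). For none of these was the difference between the contrasts called (adjusted p = 0.124 for Gpc3, 0.649 for Cxcl12, 0.297 for Adipoq and 0.17 for Kitl), although with the block those of Gpc3 and Kitl had adjusted p of 0.0092 and 0.0146. Apod and Slc47a1, an organic cation transporter, were also called in both. The Apod call in AB against B (0.92 ± 0.22, 0.0357) was lost without AB1, AB2, AB3, B1, B2 and B3 (up to 0.116). Slc47a1 (1.96 ± 0.54 and 2.55 ± 0.54) was lost in A against DN without A1, A2, A3, A4, DN1, DN2 and DN3 (up to 0.169) and in AB against B without AB2, B1 and B2 (up to 0.0641).

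**Figure D3:**
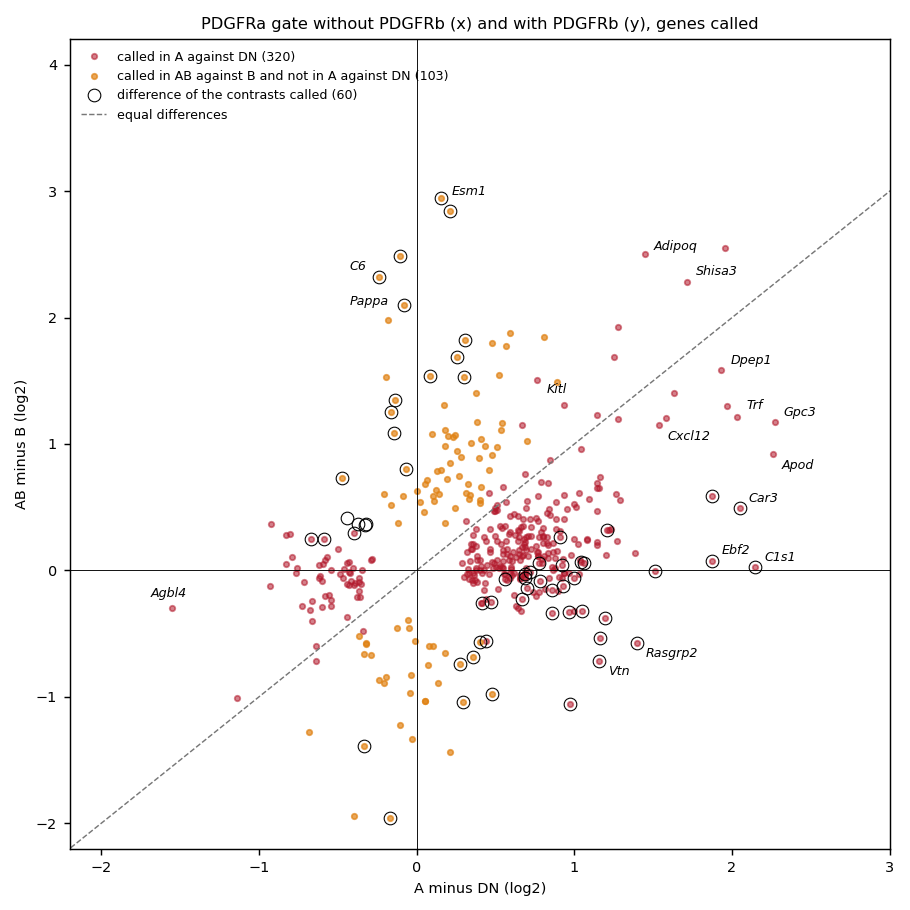
Difference A minus DN (x axis) against AB minus B (y axis), both log2, for genes called in A against DN (red) or in AB against B and not A against DN (orange), with a ring where the difference of the contrasts was called (a ring with no point is a gene called in neither) and a dashed line where both are equal. Most red points lie near 0 on the y axis, with Gpc3, Trf, Shisa3 and Adipoq high on both axes and Ebf2, C1s1 and Car3 high on the x axis.

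The difference of the contrasts, A minus DN less AB minus B, was called for 60 genes (0.657%), 35 of them among the 320, and 22 of the 60 held without any 1 of the 16 arrays (with the block, 361 were called). Ebf2, far higher in A than in DN, was at 7.81 ± 0.38 in AB and 7.74 ± 0.39 in B (SD, n = 4 each), and its difference of contrasts was 1.80 ± 0.30 (adjusted p = 0.00675). Rasgrp2 ran -0.57 ± 0.16 in AB minus B (adjusted p = 0.101, and 0.0282 with the block), opposite in sign to its rise in A (difference of contrasts 1.97 ± 0.23, adjusted p = 0.000137). Vtn ran -0.72 ± 0.24 (adjusted p = 0.198, and 0.108 with the block), also opposite in sign (1.87 ± 0.33, adjusted p = 0.00971). Thy1, Car3, Fbn2, Lama2, Col5a3 and Serpinf1 had differences of contrasts of 1.57 ± 0.23, 1.55 ± 0.29, 1.29 ± 0.24, 1.06 ± 0.18, 1.05 ± 0.17 and 0.75 ± 0.12, all with adjusted p under the threshold. C1s1 had 2.12 ± 0.42 (adjusted p = 0.0232), which was lost without A1, A4 or DN2 (up to 0.0589). Its neighbour C1ra had 0.90 ± 0.31 and was not called (adjusted p = 0.215).

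Mustn1, a small nuclear protein of the musculoskeletal system, had 7.75, 7.42, 7.81 and 7.69 in A and 7.23, 7.07, 7.40 and 7.21 in DN, and 7.62, 7.53, 7.53 and 7.86 in AB and 8.20, 8.33, 8.22 and 8.03 in B. It was higher in A (0.44 ± 0.11) and lower in AB (-0.56 ± 0.11), with a difference of contrasts of 1.00 ± 0.16 (adjusted p = 0.00527). Col22a1, a collagen of tissue junctions, had 9.02, 8.69, 8.23 and 7.98 in A and 7.65, 7.77, 7.22 and 7.39 in DN, and 8.33, 7.75, 8.18 and 8.02 in AB and 9.73, 9.11, 8.93 and 8.74 in B, with a difference of contrasts of 2.03 ± 0.36 (adjusted p = 0.00971). The single contrasts were less firm than that. The A against DN calls were lost without A1, A3, A4, DN1, DN2 and DN4 for Mustn1 and A1, A2, A3, DN1, DN2, DN3 and DN4 for Col22a1 (adjusted p up to 0.108 and 0.131). In AB against B they were lost without AB2 for Mustn1 and AB1, AB2, AB3, AB4, B1, B2 and B3 for Col22a1 (up to 0.0561 and 0.163).

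In the other direction stood genes that were higher in AB than in B and were not called in A against DN. Esm1, a secreted proteoglycan also called endocan, had 4.02, 3.97, 3.96 and 4.07 in A and 3.94, 3.85, 3.94 and 3.69 in DN, and 7.38, 8.62, 7.67 and 7.46 in AB and 4.53, 4.44, 5.20 and 5.19 in B. Its values in A and DN were at the low end of the arrays' scale, and the difference of contrasts was -2.79 ± 0.30 (adjusted p = 6.23e-05). Serpina3g, a serpin, had -2.64 ± 0.27 (6.23e-05), and Cbln1, a secreted organizer of synapses, -2.59 ± 0.32 (0.0003). C6 of the terminal complement pathway had 5.21, 5.71, 5.54 and 5.29 in A and 5.82, 5.45, 5.75 and 5.70 in DN, and 8.58, 9.17, 7.60 and 7.93 in AB and 5.97, 6.31, 5.51 and 6.21 in B (-2.56 ± 0.35, adjusted p = 0.000825). Pappa had -2.18 ± 0.30 (0.000991), with 8.80 ± 0.62 in AB and 6.70 ± 0.27 in B (SD, n = 4 each), and Ebf3 -1.45 ± 0.25 (0.00807). The related factors Ebf2 and Ebf3 thus had differences of contrasts of opposite sign. For the pair Igfbp4 and Pappa, a substrate and its protease, Igfbp4 was called in both contrasts (0.49 ± 0.09 in AB minus B, adjusted p = 0.00737) and Pappa in AB against B alone (2.10 ± 0.21, adjusted p = 1.28e-05).

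Across all 5 groups, DN had the lowest mean for 246 of the 262 genes higher in A. Choosing genes higher in A than in DN favours this place for DN and fixes that A is never the lowest and DN never the highest, so these counts are a description. The highest mean was in SL for 112, AB for 99, B for 35 and A for 16. Among all 9129 genes tested, DN had the lowest mean for 3160 and the highest for 2931. The highest was in SL for 2022 of all tested, AB for 1801, B for 1558 and A for 817. The 16 genes highest in A included Gpc3, Apod, Car3, Cpz, Tenm2, Slc36a2, Ifitm5, Dmp1 and Gfra2. Car3 averaged 9.57 ± 0.35 in A and 7.52 ± 0.31 in DN, and 7.64 ± 0.09 in AB, 7.15 ± 0.25 in B and 5.08 ± 0.44 in SL (SD, n = 4 each). Cpz averaged 8.81 ± 0.32 in A and 6.94 ± 0.29 in DN, and 7.99 ± 0.23, 7.39 ± 0.10 and 7.20 ± 0.52 in AB, B and SL. For 8 of the 16 the next highest group was within the SD of A, among them Gpc3 (10.33 ± 0.35 in A and 10.02 ± 0.24 in AB), Slc36a2 (8.79 ± 0.39 in A and 8.75 ± 0.40 in AB), Dmp1 (8.42 ± 0.36 in A and 8.41 ± 0.51 in AB) and Gfra2 (6.75 ± 0.18 in A and 6.57 ± 0.19 in B). The laminin chain Lamc1 was highest in SL at 11.00 ± 0.21, against 9.73 ± 0.22 in A and 8.69 ± 0.33 in DN. All 58 genes lower in A had their highest mean in DN, and the lowest mean was in AB for 23, SL for 20, B for 13 and A for 2. Choosing genes lower in A than in DN likewise favours DN as the highest. It fixes that A is never the highest and DN never the lowest. Among all tested, the lowest mean was in SL for 1766, AB for 1539, B for 1397 and A for 1267. Nckap5 averaged 6.80 ± 0.37 in A and 7.57 ± 0.18 in DN, and 4.98 ± 0.12, 5.00 ± 0.24 and 5.18 ± 0.27 in AB, B and SL.

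**Figure D4:**
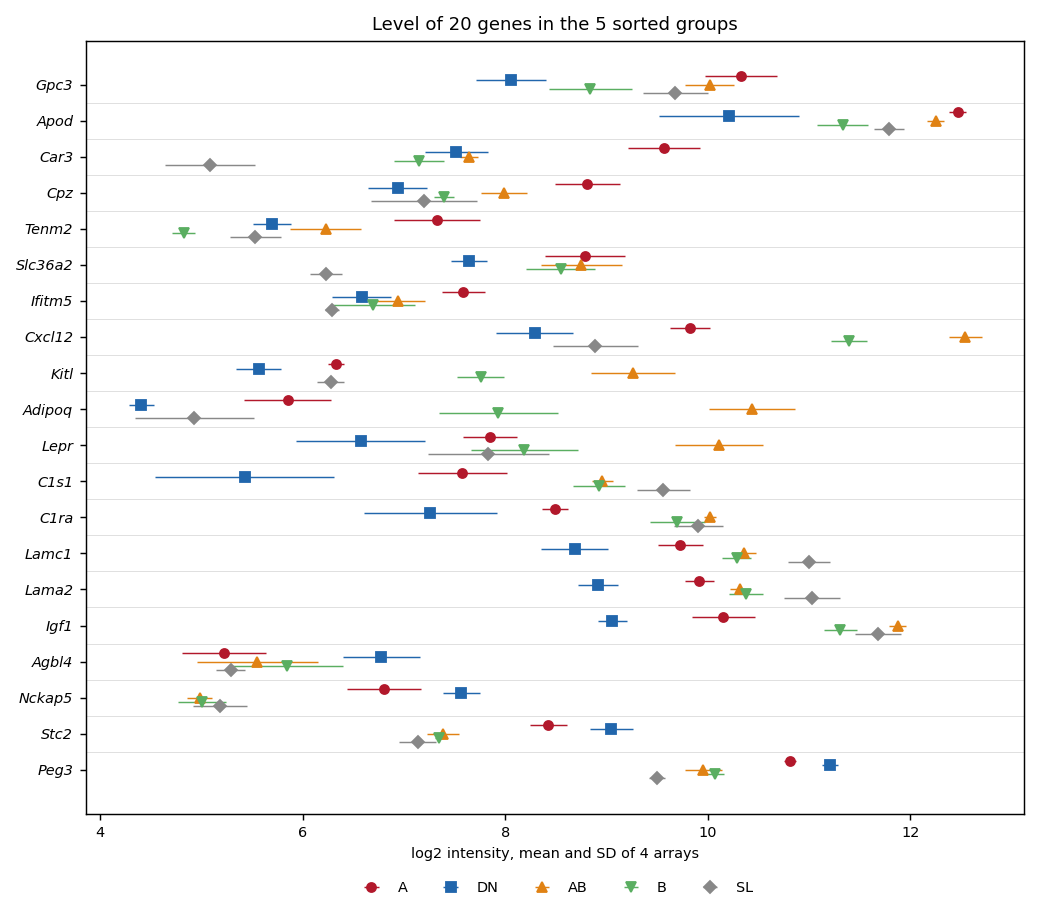
Mean log2 intensity and SD (n = 4) of 20 genes in A (circles), DN (squares), AB (triangles up), B (triangles down) and SL (diamonds), to be compared within a gene only. DN is lowest for 12 of the 20, A is highest for Gpc3, Apod, Car3, Cpz, Tenm2, Slc36a2 and Ifitm5, and the 4 genes lower in A at the foot are highest in DN.

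The authors' deposited table for this pair lists 8243 probe sets, 211 of them with a q-value under 0.05, of which 159 had A above DN and 52 had A below DN. Of the 320 genes called here, 282 are listed in the authors' deposited table, 154 of these have a q-value under 0.05 there, and all 154 have the same direction. That table compares the same 2 groups of this study, so the shared direction is no separate support for the calls.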

How the data were processed

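Per the labels, biotin-labelled total RNA of sorted cells was hybridized to expression arrays, 4 per group. The authors' deposited filtered table holds normalized linear intensity for 12440 probe sets, and the authors' deposited series table holds log2 values for 24539. Their log2 values differed by at most 0.0075. The normalization method is not given in the sources used here. Per the file headers, the authors' deposited comparison table gives a log2 difference, here DN minus A, with a p-value and a q-value.

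Log2 of the filtered intensities was used. Of the probe sets, 83 had no symbol and were left out, and each of 9129 genes was represented by the probe set with the highest mean over 20 arrays (6698 genes had 1, 2431 several). Limma 3.58.1 in R 4.3.3 fitted group means over all 20 arrays (15 residual degrees of freedom, 4.34 prior). The contrasts were A minus DN, AB minus B and their difference, each with Benjamini-Hochberg adjustment over all genes at 0.05. Python 3.11.15 with pandas 2.3.3 drew motifs and figures. Promoter sequences were taken from RefSeq, GRCm38.p6, by symbol. The deviations of same-numbered AB and B arrays correlated (r = 0.422, 0.367, 0.17 and 0.361), but no label states a pairing. Differences, SE and calls are therefore from the fit without pairs unless the replicate block is named, and counts with the block are given beside them.

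Genes named are the 25 largest rises and 25 largest falls that were called, did not overlap and held without any 1 A or DN array (10 falls did), members of gene lists, and the largest in both contrasts and in their difference. Some genes that meet this rule are not reported here. Mustn1, Syt8 and Ddah1 were named after their values were seen. The members and lists were chosen with earlier results of these data known. The fit was tested on simulated data. Alternatives were other normalization, filters, probe set rules, array weights, a neutrophil covariate, the replicate block and leaving out arrays. The number of arrays limits the precision.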

Additional observations from a re-analysis of the deposited data

Results flagged for a closer look

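The 4 values of a gene in A and in DN were checked for 1 array that stood apart from the other 3. Of 242 such groups 13 did, and chance gives about 1 in 20. In A the arrays concerned were A2 for Serping1 (10.56), Dpep1 (7.07) and Bst2 (6.97), A1 for Igfbp4 (11.10), Lpl (9.71) and Lama2 (10.13), A3 for Smoc2 (10.82) and Pdgfra (9.15), and A4 for C3 (9.06). In DN they were DN2 for Lamc1 (8.20), DN3 for Prrx1 (9.74) and L3mbtl2 (6.42), and DN4 for Pecam1 (7.38). All are log2 levels. Calls of these genes that did not hold without 1 array are named with the results.

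The PDGFRa contrast differed between cells without and with PDGFRb for 32 of the genes described, by the limma test of A minus DN less AB minus B. The value was negative for 8 genes. Esm1 (-2.79), Serpina3g (-2.64), Cbln1 (-2.59), C6 (-2.56), Pappa (-2.18), Ebf3 (-1.45) and C2 (-1.23) were higher in AB than in B and not called in A against DN, and Cldn12 (-0.92) was lower in A than in DN. It was positive for 24 genes, all higher in A than in DN. Those that held without any 1 of the 16 arrays were Col22a1 (2.03), Rasgrp2 (1.97), Vtn (1.87), Ebf2 (1.80), Thy1 (1.57), Car3 (1.55), Fbn2 (1.29), Lama2 (1.06), Col5a3 (1.05), Mustn1 (1.00) and Serpinf1 (0.75). Those lost without at least 1 array were C1s1 (2.12), Enpep (1.70), Angptl7 (1.52), Cpz (1.28), Zeb2 (1.01), Lamc1 (0.97), Serping1 (0.88), Gfra2 (0.87), Nid1 (0.73), Col4a1 (0.72), Adam19 (0.71), Cpxm2 (0.68) and Adamts2 (0.65), and likewise C2 and Cldn12 among the negative ones.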

How the results depend on the processing

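The count of genes called in A against DN, 320 in the fit over 20 arrays, was 166 with the 2 groups of each pair alone (143 higher, 23 lower). It was 195 without every replicate 4 (178 higher, 17 lower) and 221 with array weights (196 higher, 25 lower). Without 1 array of A or DN it was 180 to 301, with 165 to 245 higher and 15 to 66 lower, lowest without A4 and next without A1 (199). Under quantile normalization it was 275, on genes with an intensity of 100 in all 4 A or all 4 DN arrays 287, without a filter 352, and with the neutrophil marker mean as a covariate 285. The 133 list members called became 82 with the 2 groups of each pair alone and 87 to 124 without 1 array, lowest without A1. AB against B gave 70 genes with the 2 groups of each pair alone, 72 with the intensity filter, 214 without a filter and 78 to 194 without 1 array, against 138. Calls in both contrasts, 33, became 18 with the 2 groups of each pair alone, 50 over all probe sets and 23 to 39 without 1 array. The 60 genes with a called difference of contrasts became 39 with the intensity filter, 34 with the neutrophil covariate, 149 without every replicate 4 and 24 (without A1) to 154 (without AB4) without 1 array. The intensity filter was set on the A and DN arrays alone, also for AB against B. It left out genes low in both A and DN, such as Esm1 and Serpina3g, which were called in AB against B. The causes of these changes were not otherwise tested, beyond the smaller number of arrays where arrays were left out.

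Pdgfra kept its call under every alternative. Pdgfrb was 0.48 (adjusted p = 0.088) without every replicate 4 and 0.43 to 0.54 without 1 array, no longer called without A1, A4 or DN3 (adjusted p up to 0.0791).

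Of the A and DN replicate numbers, those of replicate 2 had deviations that did not go together (r = -0.053, with 0.228, 0.236 and 0.163 for the others), so the numbers were not taken to pair A with DN. Same-numbered arrays of A and AB correlated by 0.185 to 0.398 and those of DN and B by 0.022 to 0.453. Ihh was lower in A for all 4 numbers and was not called with the replicate block either. With the replicate block 549 genes were called (424 higher, 125 lower). It gave 319 in AB against B (160 higher, 159 lower, against 101 and 37), 58 in both contrasts in the same direction, 28 in opposite directions (against 2) and 361 for the difference of contrasts, and all 320 calls were among the 549.

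Of 2241 values of 119 single genes under an alternative, 2005 kept direction and side of the threshold, 209 kept direction and lost the call, and 27 turned sign, none of them called. With the intensity filter only 99 of the 119 were tested, and all 99 kept direction and side of the threshold. Apart from fits without 1 array, calls were lost for 31 genes with the 2 groups of each pair alone, 22 without every replicate 4, 13 without a filter, 12 with the neutrophil covariate, 12 with array weights, 9 under quantile normalization, 3 with the mean of probe sets and 2 each over all probe sets and with trend and robust moderation. Those whose call otherwise held without any 1 array are named with the results. Under quantile normalization the values that turned sign were C2 (-0.1), Esm1 (-0.0573) and Serpina3g (-0.0712). With the neutrophil covariate they were Pappa (0.0906), Sp7 (0.0471), Ly6a (-0.80), Ptprc (-0.397) and Cbln1 (0.0423). Without every replicate 4 they were Sp7 (0.0318), Col2a1 (-0.135) and Pecam1 (0.0512), with the mean of probe sets Runx2 (-0.0627), and with array weights Col2a1 (-0.0094). Without 1 array the values of genes that turned sign ran from -0.161 to 0.0061 for Pappa, -0.0845 to 0.13 for Runx2, -0.257 to 0.044 for Sp7, -0.0976 to 0.103 for Col2a1 and -0.292 to 0.259 for Pecam1.

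No background value or detection call was used, so how far low signals compress differences was not measured. Genes higher in A with a DN mean under the array medians of 6.41 to 6.438 included Shisa3 (4.81), Clec2d (4.91), Enpep (5.18) and C1s1 (5.43).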
